A study of Mus musculus with 16 samples.

Results

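Midkine (Mdk) and pleiotrophin (Ptn) form a family of small, secreted, basic growth factors that bind heparin and the sulfated sugar chains of proteoglycans. The members were the probes whose platform annotation gives the single symbol Mdk or Ptn, and this found 2 of 15247 probes, 1 for each gene, among 7114 genes named on the array. The genes were chosen with results of these arrays known, Mdk as the named gene with the largest increase in M833, so the values of both on these arrays are a description and carry no test.

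The data were 16 two-colour arrays of total RNA from mouse cells. There were 8 arrays of the cell type labelled WT and 8 of the cell type labelled M833, all hybridised against a common reference RNA, with the cell sample in Cy5 on 4 arrays of each cell type and in Cy3 on the other 4. By the series title the cells are MEFs, which usually stands for mouse embryonic fibroblasts, and the study concerns mutations of Met. No label gives the mutation or line behind the name M833, what the reference was made of, the age of the embryos, or whether the cells came from several cultures or clones. Met, the receptor for hepatocyte growth factor, had 0 probes under its symbol, so the genotype could not be checked on the arrays. Values are log2 ratios of the cell sample over the reference, a direction that the titles make likely and no label states. A value of 0 means the same signal as the reference, and ratios of different genes do not rank their amounts of RNA.

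The arrays of each cell type were divided into 2 sets, a number fixed beforehand. The sets were found by clustering the arrays on all features other than Mdk and Ptn, after the mean of each cell type and dye had been removed, and they are not named by the labels. WT replicates 1, 2, 5 and 6 are called set 1 and WT replicates 3, 4, 7 and 8 set 2, and the M833 replicates were divided by the same numbers. In WT the deviations of arrays of the same set correlated with Spearman's rho between 0.26 and 0.57, and those of different sets between -0.73 and -0.36. In M833 the division was less clear, with rho from -0.37 to 0.25 within sets and from -0.51 to -0.01 between them. These ranges overlap, so the arrays of an M833 set did not clearly deviate together. WT replicate 2 stood apart from the rest with 49 log2 ratios above 8, none of them of Mdk or Ptn. Nothing in the labels says that arrays were separate cultures, so that standard errors and p-values measure the spread between arrays, which may be technical.

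Both growth factors are made widely in the embryo, in neural tissue, cartilage and mesenchyme, and their expression falls in most adult tissues. They act on the receptor-type phosphatase Ptprz1, on the receptor tyrosine kinase Alk and on the endocytic receptor Lrp1, together with syndecans, integrins and nucleolin at the cell surface. Midkine was first found as a gene induced by retinoic acid in embryonal carcinoma cells, and pleiotrophin as a heparin-binding protein of brain that promotes neurite outgrowth.

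The genes lie on different chromosomes within similar neighbourhoods. In the RefSeq gene table of GRCm38.p6, Mdk on chromosome 2 has the muscarinic receptor gene Chrm4 as its nearest protein-coding neighbour on one side and the diacylglycerol kinase gene Dgkz, followed by Creb3l1, on the other. Ptn on chromosome 6 has Chrm2 on one side and Dgki, followed by Creb3l2, on the other, so that each position is held by a gene of the same family. Of these neighbours Creb3l2, which encodes a membrane-bound transcription factor, was measured, with a log2 difference of -0.11 ± 0.06 between M833 and WT (adjusted p = 0.238, limma). Ambra1 and Phf21a, the nearest measured genes on either side of Mdk, differed by 0.02 ± 0.05 (adjusted p = 0.771) and -0.10 ± 0.11 (adjusted p = 0.501), and Mtpn, the nearest on the other side of Ptn, by -0.09 ± 0.05 (adjusted p = 0.219). None of these 4 neighbours was called at an adjusted p under 0.05, where 25.9% of all features were.

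RefSeq promoters of GRCm38.p6 held 1 of the 2 members, Ptn, and only its upstream sequence could be shown. The 250 bases before the start of Ptn, at chr6:36810180-36810429 on the minus strand, read 5′ to 3′ with a CCAAT box in capitals:
Ptn: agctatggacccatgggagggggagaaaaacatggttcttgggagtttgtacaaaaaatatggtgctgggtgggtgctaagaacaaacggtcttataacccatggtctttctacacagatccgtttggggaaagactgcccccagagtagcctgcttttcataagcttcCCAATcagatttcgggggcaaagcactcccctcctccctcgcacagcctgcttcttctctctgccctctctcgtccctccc
The search covered both strands for the CCAAT box (CCAAT), the TATA box (TATAAA), the GC box (GGGCGG) and an AP-1 site (TGANTCA). It also covered a part of the retinoic acid receptor site (AGGTCA) and the core of the hypoxia response element (ACGTG). The letters AGGTCA are not a full retinoic acid receptor site, and the full site was not searched for. The CCAAT box, starting at position -81, was the only match in the Ptn window. A CCAAT box stands in 33.8% of the 32851 promoter windows of this length, against 32.7% for the GC box and 16.6% for the hypoxia core. The letters AGGTCA stand in 14% of them, the TATA box in 12.4% and the AP-1 site in 6.75%. These matches describe the letters of the window and show no binding.

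Mdk was low against the reference in both cell types and less so in M833. Over the 8 WT arrays its log2 ratio ran from -4.13 to -2.77 with a median of -3.38, and across the 8 arrays of M833 from -1.90 to -1.56 with a median of -1.80. The highest WT array therefore lay below the lowest M833 array, and all 4 M833 arrays exceeded all 4 WT arrays in each dye orientation, as they did for 4.01% of the 12761 features. After adjustment for dye the mean was -3.41 ± 0.55 in WT and -1.77 ± 0.10 in M833 (SD, n = 8 each), a signal 10.6 times below the reference in WT and 3.42 times below it in M833. The difference of 1.63 ± 0.19 (SE) corresponds to 3.10-fold and was 1.64 in the Cy5 arrays and 1.62 in the Cy3 arrays. Among 7114 named genes it ranked 1st from the highest, or 1st from the lowest were the unstated direction of the ratios the opposite, and the next gene, Mylpf, a light chain of fast muscle myosin, was at 1.04 ± 0.23.

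The level of Mdk also differed among the WT arrays. In WT set 1 the log2 ratios were -4.05, -3.80, -3.52 and -4.13, and in WT set 2 they were -2.77, -2.82, -2.92 and -3.23. No array of one WT set reached the range of the other, and the set means of -3.88 and -2.93 differ 1.92-fold. In M833 set 1 the ratios were -1.68, -1.83, -1.89 and -1.73, and in M833 set 2 they were -1.56, -1.82, -1.79 and -1.90. These ranges overlap, with set means of -1.78 and -1.77, so the order of Mdk was WT set 1, then WT set 2, then both M833 sets at levels that do not differ beyond their spread. M833 exceeded WT in all 4 pairings of sets, by 2.10 and 2.11 against WT set 1 and by 1.15 and 1.17 against WT set 2. An order in which all 4 pairings shared a sign held for 48.8% of all features.

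Ptn followed another pattern. Its log2 ratio ran from -0.36 to 1.56 with a median of 0.53 in WT, and from -0.02 to 0.57 with a median of 0.25 in M833. All M833 arrays lay inside the range of the WT arrays. The cell types overlapped in at least 1 dye orientation for Ptn, as for 89.5% of features. The means after adjustment for dye were 0.56 ± 0.86 in WT and 0.27 ± 0.23 in M833 (SD, n = 8 each). The difference of -0.30 ± 0.30 (SE) was no larger than its error and was -0.25 in the Cy5 arrays and -0.34 in the Cy3 arrays. In the ranking of named genes from the highest to the lowest difference Ptn stood at place 6526 of 7114, or at place 589 with the direction turned, between Slc66a2 at -0.30 ± 0.04 and Apobec1 at -0.30 ± 0.03. Both neighbours were called lower (adjusted p = 0.000117 and 5.63e-06, limma), with errors far smaller than that of Ptn at a difference of the same size.

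The spread of Ptn in WT came from the sets. In WT set 1 the log2 ratios were 1.24, 1.16, 1.50 and 1.56, well above the reference, and in WT set 2 they were -0.24, -0.36, -0.27 and -0.09, below it. The set means of 1.37 and -0.24 differ 3.05-fold. In M833 set 1 the ratios were 0.02, -0.02, 0.12 and 0.12, and in M833 set 2 they were 0.43, 0.38, 0.52 and 0.57, with means of 0.06 and 0.48. From the highest, the order was WT set 1, M833 set 2, M833 set 1 and WT set 2, and no range overlaps its neighbour. M833 was therefore lower than WT set 1, by -1.31 and -0.89, and higher than WT set 2, by 0.30 and 0.72, with set 1 of M833 named first in each pair. The mean difference of -0.30 joined opposite differences, and its sign turned without WT set 1, where it was 0.51, and with array weights, where it was 0.0275, and it was -1.10 without WT set 2.

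**Figure D1:**
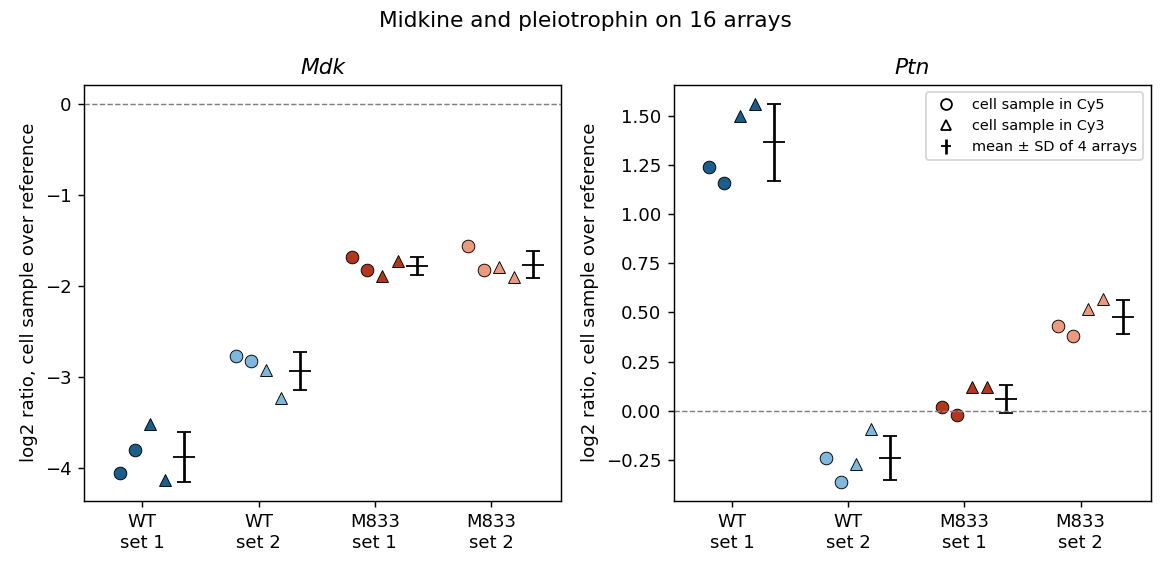
Log2 ratio of the cell sample over the reference (vertical axis) for Mdk (left) and Ptn (right) on each array, by set of arrays (horizontal axis), with circles for the cell sample in Cy5, triangles for Cy3, and bars for the mean ± SD of 4 arrays. Mdk lies lowest in WT set 1 (mean -3.88) and is alike in both M833 sets (-1.78 and -1.77), whereas Ptn is highest in WT set 1 (1.37) and lowest in WT set 2 (-0.24).

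The WT set with the lower Mdk was the set with the higher Ptn. Set 1 minus set 2 in WT was -0.94 for Mdk and 1.61 for Ptn, where the median size of this difference over named genes was 0.14. With ratios above 8 set missing, Ptn ranked 9th from the highest of 7114 named genes in this difference, and 30th with them kept, and Mdk ranked 42nd from the lowest either way. In M833 the same subtraction gave -0.01 for Mdk and -0.42 for Ptn, where the median size was 0.05. The sets were defined from these arrays, so the ranks are a description. With 4 sets as the units, no correlation of Mdk with Ptn across arrays is given.

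**Figure D2:**
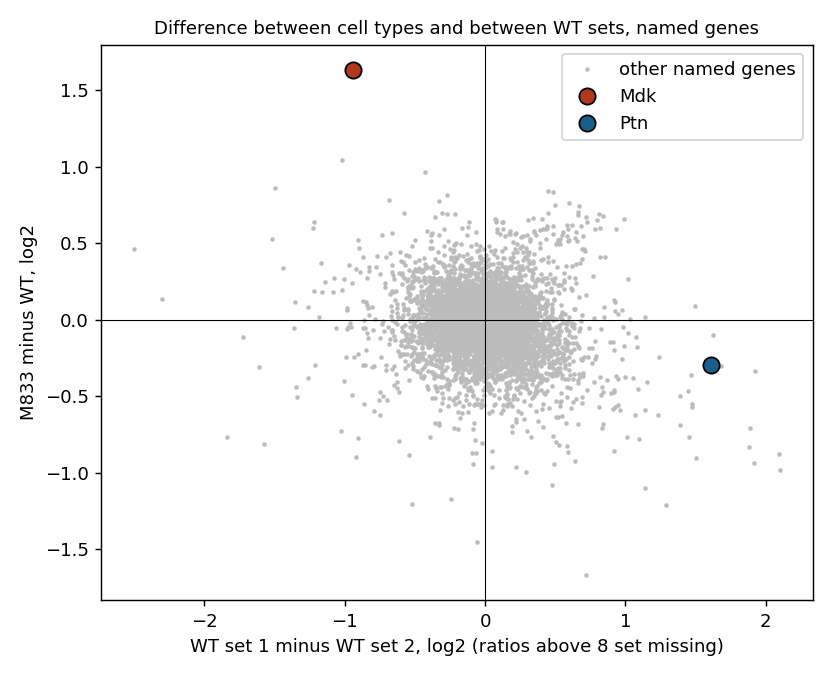
M833 minus WT (vertical axis, log2) against WT set 1 minus WT set 2 (horizontal axis, log2, with ratios above 8 set missing) for 7114 named genes, grey points, with Mdk in red and Ptn in blue. Mdk has the highest value on the vertical axis (1.63) at -0.94 on the horizontal axis, and Ptn lies far to the right (1.61) with a difference between the cell types of -0.30.

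Other genes followed the same patterns with smaller or larger steps. Likeness was taken as Pearson's r with Mdk or Ptn over the 16 arrays after adjustment for dye, across 7113 other named genes. The arrays share cell types and sets, so that high values are common, with r of at least 0.9 for 71 genes with Mdk and 128 with Ptn, and of -0.9 or below for 181 and 134. The genes most like Mdk were Ahsa1, which encodes a co-chaperone of Hsp90 (r = 0.971), Pnn, encoding the nuclear and junction protein pinin (0.966), 3110082I17Rik (0.963), Mphosph6 (0.955) and Polr1a, the largest subunit of RNA polymerase I (0.953). Their steps were small beside that of Mdk: Ahsa1 had set means of -0.11 and 0.01 in WT and 0.18 and 0.14 in M833. Within WT these 5 genes had r of 0.871 to 0.95 with Mdk, and within M833, where Mdk hardly varied, r ran from -0.331 to 0.504. The genes were picked over arrays that include those of WT, where Mdk differed mainly between the sets. The values within WT therefore largely restate that difference. The most opposite were Ly6e, encoding a membrane-anchored surface protein (r = -0.986), Npr2, a natriuretic peptide receptor (-0.981), and Tmed9, a carrier of early secretory vesicles (-0.979), which had set means of -0.42 and -0.91 in WT and -1.59 and -1.62 in M833.

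The genes most like Ptn were Col6a1, a chain of collagen VI (r = 0.993), Fndc3a (0.993), Igsf10 (0.988), the CTP synthase gene Ctps2 (0.986) and the transcriptional corepressor gene Runx1t1 (0.978). Col6a1 had set means of -0.14 and -2.06 in WT and -1.64 and -1.23 in M833, the same order of sets as Ptn. The most opposite were Sfn, encoding 14-3-3 sigma (r = -0.992), the cell adhesion gene Mcam (-0.98) and the nocturnin gene Noct (-0.976), and Sfn had set means of -3.33 and -0.82 in WT and -1.31 and -1.92 in M833. In contrast to the genes like Mdk, these 8 genes kept their likeness within M833, with r of 0.838 to 0.978 for the first 5 and of -0.978 to -0.714 for the last 3. Ptn differed within M833 mainly between the sets, so these values of r largely restate that difference and do not rest on independent arrays.

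**Figure D3:**
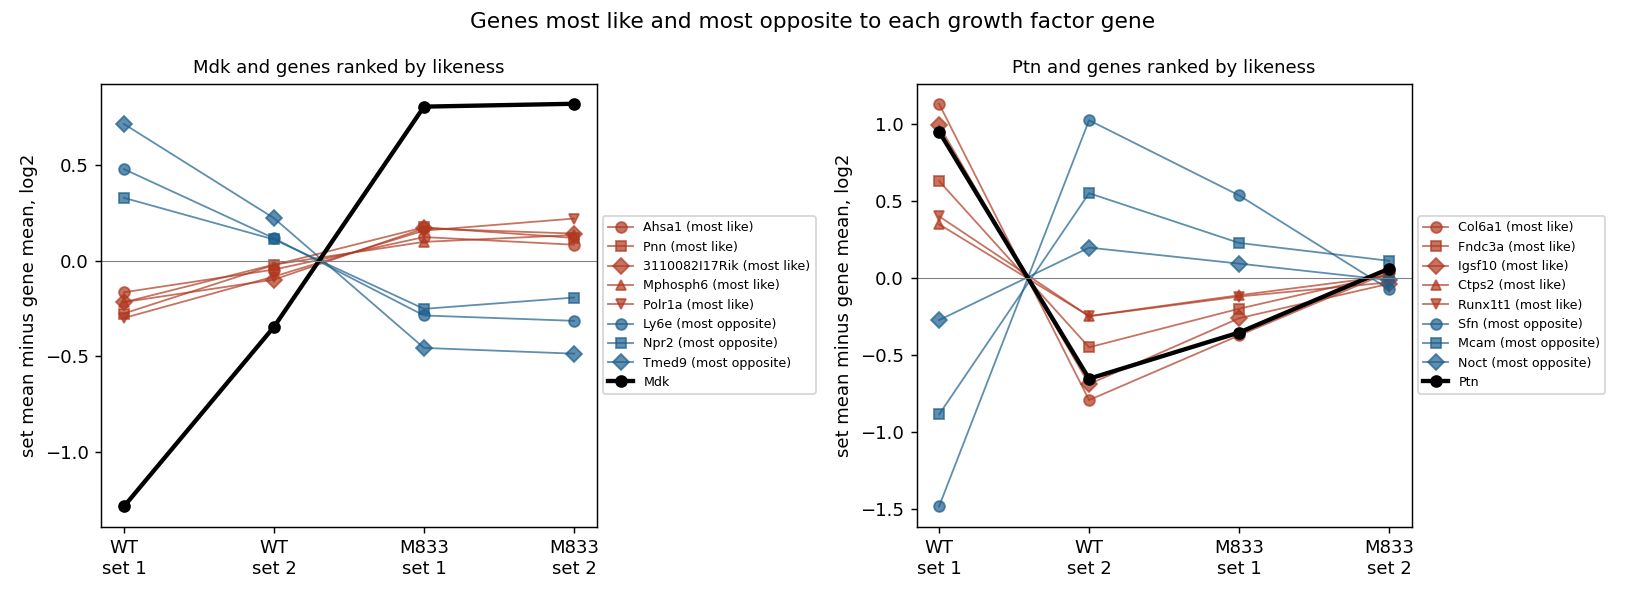
Set means of log2 ratios, each gene centred on the mean of its 4 sets (vertical axis), across the sets (horizontal axis) for Mdk (left) and Ptn (right) in black, the 5 most like genes in red and the 3 most opposite in blue. Genes like Mdk are higher in M833 than in WT set 1 by less than Mdk itself, and Col6a1 and Igsf10 follow Ptn in size and order.

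The receptors and binding partners of the growth factors were examined as a list of 31 genes, of which 15 were measured. The test was the fit over all 12761 features, in which 25.9% were called at an adjusted p under 0.05, 10.0% as higher in M833 and 15.9% as lower. In the receptor list 4 genes were higher, 3 were lower and 8 were not called, with a median difference of -0.13 against -0.03 over all features. Syndecan 1 (Sdc1), a cell surface heparan sulfate proteoglycan, fell by 0.40 ± 0.06, syndecan 2 (Sdc2) by 0.29 ± 0.05, and Lrp1 by 0.32 ± 0.05 (SE, n = 8 per cell type). In each of these 3 genes all M833 arrays lay below all WT arrays in both dye orientations, where 6.49% of features did so. Nucleolin (Ncl), a nucleolar protein that also appears at the cell surface, rose by 0.24 ± 0.04, although its 4 probes ran from -0.06 to 0.49. The endocytic receptor gene Lrp2 rose by 0.29 ± 0.06, the glypican gene Gpc3 by 0.55 ± 0.16 and the basement membrane proteoglycan gene Agrn by 0.15 ± 0.05. Among these 7 genes the adjusted p in limma was smallest for Sdc1 (0.000145) and largest for Agrn (0.0298).

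The other measured receptors did not pass the test. Ptprz1 differed by -0.02 ± 0.03 (adjusted p = 0.66, limma), with 6 probes from -0.25 to 0.28. The beta 1 integrin gene Itgb1 was at -0.13 ± 0.08 (adjusted p = 0.223) and the phosphatase gene Ptprs, which also binds heparan sulfate, at -0.25 ± 0.10 (adjusted p = 0.0941). Against the WT sets taken singly Itgb1 was at -0.33 (adjusted p = 1.6e-05) without set 1 and 0.06 (adjusted p = 0.175) without set 2, and Ptprs at 0.0214 (adjusted p = 0.672) and -0.52 (adjusted p = 1.06e-05). The sets were found from these same arrays, so leaving 1 out tends to narrow the spread within WT. The SE of Itgb1 was 0.03 without set 1, and these p-values are a description and no test. Syndecan 4 (Sdc4) was at -0.14 ± 0.22 (adjusted p = 0.659) and 0.09 without WT replicate 2. The versican gene Vcan was at -1.63 ± 1.37 and at -0.16 ± 0.20 with ratios above 8 set missing. The calls of Gpc3 (adjusted p = 0.112) and Agrn (adjusted p = 0.283) were lost with the sets of arrays as a random block, and Gpc3 was at 0.19 without WT set 1. Agrn was also lost without M833 replicate 2, 4 or 8 or WT replicate 6 or 7 (adjusted p from 0.0512 to 0.0584), and Ptprs became called when WT replicate 3 or 7 was left out (adjusted p = 0.0463 and 0.0425). Scaling the log ratios to a common spread left Gpc3 (0.24), Lrp2 (0.13) and Agrn (0.04) uncalled, and neither was Lrp1 without the dye term (adjusted p = 0.246).

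Enzymes that build and modify heparan and chondroitin sulfate, the sugar chains that both growth factors bind, were called at a share of 30%, near the 25.9% of all features. Of 46 listed genes 20 were measured, of which 5 were lower, 1 was higher and 14 were not called. The median difference was -0.10. Chpf, which extends chondroitin chains, fell by 0.65 ± 0.05, the chondroitin sulfotransferase gene Chst11 by 0.36 ± 0.07, the heparan sulfate polymerase gene Ext2 by 0.30 ± 0.03 and the heparan sulfotransferase gene Hs6st2 by 0.29 ± 0.05 (SE, n = 8 per cell type). In all 4 genes the M833 arrays lay below the WT arrays in both dye orientations, as for 6.49% of features. The sulfotransferase gene Ndst2 was higher by 0.15 ± 0.03. The adjusted p in limma was 7.41e-07 for Chpf and no larger than 0.00247, the value of Ndst2, for the others named. With log ratios scaled between arrays Hs6st2 was at -0.01 (adjusted p = 0.951), and the call of Ndst2 was lost when the sets entered as a random block (adjusted p = 0.0735).

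Among 16 measured of 29 listed signalling partners 6 were lower, 2 were higher and 8 were not called. This is 50% called beside 25.9% of all features, and the median difference was -0.12. The adaptor gene Irs1 fell by 0.33 ± 0.05 and the kinase gene Akt1 by 0.28 ± 0.03. For both, the M833 arrays lay below the WT arrays in both dye orientations, as for 6.49% of features. The adaptor genes Grb2 and Shc1 both fell by 0.21, with errors of 0.06 and 0.04 (SE, n = 8 per cell type). Git1, whose product is a substrate of Ptprz1, rose by 0.23 ± 0.05, and the kinase gene Fyn by 0.13 ± 0.04. The adjusted p in limma lay between 4.21e-06 for Akt1 and 0.0275 for Fyn. With the sets as a random block Grb2 (adjusted p = 0.0521), Shc1 (adjusted p = 0.0614) and Fyn (adjusted p = 0.128) were not called, and leaving out WT replicate 2 or 6 or M833 replicate 3 or 7 ended the call of Fyn (adjusted p from 0.0512 to 0.0547). Fyn was at 0.05 without WT set 1 and Grb2 at -0.08 without WT set 2.

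Other heparin-binding growth factors and their binding proteins showed no common direction. Of 30 listed genes 9 were measured, 2 were higher, 2 were lower and 5 were not called, with a median near 0 (-0.0026). The share called was 44.4%, beside 25.9% of all features. The hepatoma-derived growth factor gene Hdgf rose by 0.23 ± 0.05 (adjusted p = 0.00331, limma) and Igfbp5 by 0.19 ± 0.06 (adjusted p = 0.0453), while Tgfb2 fell by 0.29 ± 0.08 (adjusted p = 0.0108) and Pdgfa by 0.30 ± 0.10 (adjusted p = 0.0442). With the sets as a random block Igfbp5 (adjusted p = 0.184) and Pdgfa (adjusted p = 0.123) were not called. Leaving out single arrays ended the call of Igfbp5 for WT replicates 3, 4, 7 and 8 and M833 replicates 1, 2, 3, 5, 7 and 8 (adjusted p from 0.0561 to 0.0859), and that of Pdgfa for the same WT replicates and M833 replicates 1 and 3 to 8 (adjusted p from 0.06 to 0.0833). Without WT set 2 Igfbp5 was at 0.04, Pdgfa at -0.04 and Tgfb2 at -0.10, and none of these was called.

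In the retinoic acid pathway, whose signal induces Mdk in other cells, 9 of 27 listed genes were measured. Of these 1 was lower, none was higher and 8 were not called, with a median of 0.01. The share called was 11.1%, beside 25.9% of all features. The retinol dehydrogenase gene Rdh10, which makes the precursor of retinoic acid, fell by 0.43 ± 0.05 (SE, n = 8 per cell type; adjusted p = 3.36e-05, limma), from set means of 0.97 and 0.93 in WT to 0.52 and 0.51 in M833. All M833 arrays lay below all WT arrays for Rdh10 in both dye orientations, as for 6.49% of features. The retinaldehyde dehydrogenase gene Aldh1a1 was at -1.53 ± 1.23, and at -0.21 ± 0.16 with ratios above 8 set missing.

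Over the 5 lists together, each gene counted once, 69 of 163 genes were measured, 9 were higher, 17 were lower and 43 were not called, or 37.7% called beside 25.9% of all features. With the sets of arrays as a random block the count of 26 list calls fell to 15, and the count over all features fell from 3301 to 1465. When the 4 arrays of a set were averaged into 1 value, leaving 2 per cell type, limma called 0 of all 12761 features. At an unadjusted p under 0.05 there were 1675 features, where 638.1 would be expected by chance.

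**Figure D4:**
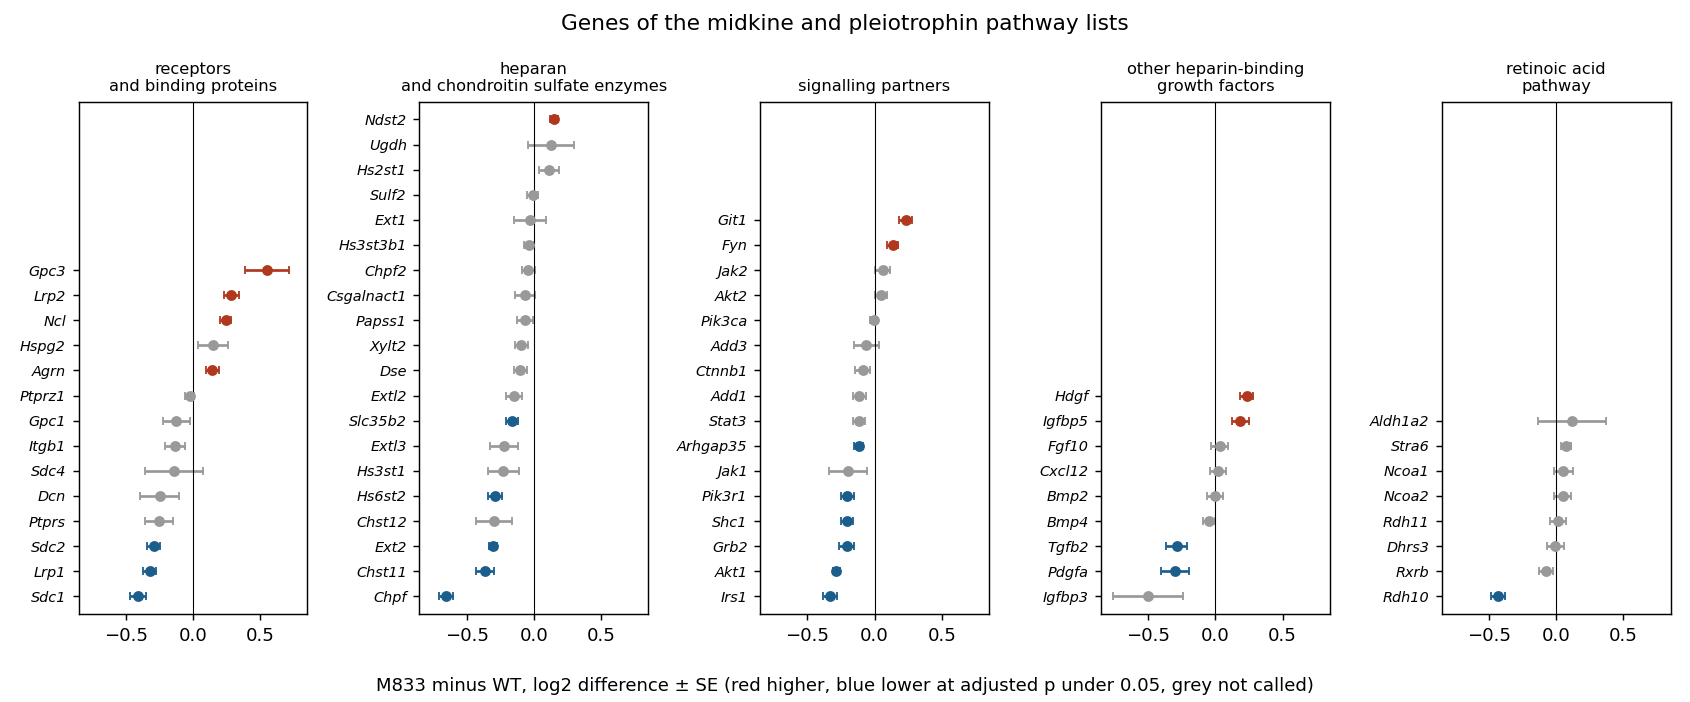
M833 minus WT as a log2 difference ± SE (horizontal axis, n = 8 arrays per cell type) for the measured genes of the 5 lists (vertical axis), red where higher and blue where lower at an adjusted p under 0.05 in limma and grey where not called. Vcan and Aldh1a1, whose errors exceed the axis, are left out, and Chpf is the lowest at -0.65 and Gpc3 the highest at 0.55.

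Marker lists of other cell types differed in how many of their genes were called. Over all features 25.9% were called, 10.0% as higher in M833 and 15.9% as lower. Of 14 macrophage and leukocyte markers 7 were measured and all 7 were lower in M833, with a median of -0.86, and their mean per array lay between -0.46 and -0.28 in WT and between -1.60 and -1.29 in M833. In WT the list mean was -0.37 in both sets, but its members differed in both directions, as with Lyz2 at 0.0442 in set 1 and -0.68 in set 2 and Laptm5 at -0.90 and -0.57. Of 8 measured fibroblast markers of 14 listed, 5 were lower and 3 were not called, with list means from -0.60 to -0.21 in WT and from -0.94 to -0.49 in M833. The list was uneven against the reference. Vim was at 1.04 in WT and 0.85 in M833 and Pdgfrb at 1.12 and 1.04, while Dcn was at -2.56 and -2.80, Lum at -2.41 and -2.57 and Col3a1 at -0.91 and -1.30. Nes, a neural progenitor gene also made by other immature cells, was higher by 0.64 ± 0.22 (adjusted p = 0.0476, limma), with set means of -0.28 and 0.94 in WT and 0.998 and 0.936 in M833. Col2a1, the only measured cartilage marker of 8, was higher by 0.97 ± 0.16 (adjusted p = 0.000424) and lay below the reference at -3.89 in WT and -2.92 in M833. Of 12 neural markers 3 were measured, of which only Nes was called, with list means from -0.95 to -0.30 in WT and from -0.57 to -0.23 in M833. Of 7 epithelial markers 5 were measured and none was called. A log ratio has no true zero, so that absence of a marker cannot be read from these values. In bulk RNA, fewer cells of a type and less RNA per cell cannot be told apart, and the part of cell composition in the levels of Mdk and Ptn was not tested.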

How the data were processed

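Total RNA of cell samples and of a common reference was hybridised to two-colour arrays. The authors deposited normalised log2 ratios per probe, made with limma per the submitters' processing notes. The sources used here give no background correction, normalisation, filter or log base, and log2 was taken from the range of the values. Array medians lay between -0.02 and 0.07. The centring and the direction of the ratios are unstated, no sign was turned, and signal over background was not analysed here. Over all probes, r between 2 arrays was 0.591 to 0.973.

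Of 15247 probes 9600 had 1 symbol, 214 several and 5433 none, under an old platform annotation, and 9492 were found by Entrez number in the RefSeq gene table, with 0 symbols updated. Probes of a gene were averaged (1810 genes with several), giving 12761 features, 7114 of them named. The test was that of limma 3.58.1 (R 4.3.3), fitted to the 16 arrays with terms for dye orientation and cell type, two-sided, with Benjamini-Hochberg adjustment over all features and a threshold of 0.05. Replicates were numbered in series order. Errors treat arrays as independent. On simulated data over 12761 features the fit recovered 62% of features changed by 0.25, 92% of those changed by 0.5, 98% by 1 and 100% by 2 (log2), and made 11 false calls. The simulated noise was independent for each array, so these rates do not cover deviations shared by the arrays of a set.

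The members, lists and tests were chosen with earlier results of these data known. Named were Mdk and Ptn, the main receptors where measured, up to 4 called genes per list and direction with the largest differences, the genes next in rank, the 5 most like and 3 most opposite genes, the nearest measured neighbours on the chromosome and examples of markers. Vcan, Aldh1a1, Igfbp3, Aldh1a2, Ugdh and Sdc4 on single arrays were singled out after their values were seen.

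Alternatives were centring or scaling of arrays, no dye term, single probes, array weights, robust moderation, 1 dye orientation, other treatments of the sets, leaving out arrays of a second slide number series, extreme values missing and leaving out each array. The second slide number series held M833 replicates 6, 7 and 8, all with the cell sample in Cy3, and no WT array.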

Additional observations from a re-analysis of the deposited data

Results flagged for a closer look

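In 3 of 62 groups of 8 arrays examined, for 31 genes in 2 cell types, an array lay apart from the others by more than Dixon's limit on the gap to the nearest array, where chance gives about 1 in 20 groups. All 3 were WT replicate 2. For Sdc4 it lay at 1.24 against -0.22 for the next array, for Vcan at 11.22 against 1.35 and for Aldh1a1 at 10.1 against 1.23, as log2 ratios adjusted for dye. Vcan and Aldh1a1 entered the genes examined after their values were seen. The count of 3 can therefore not be set against the rate given by chance. Mdk and Ptn had no array beyond the limit in WT or in M833.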

How the results depend on the processing

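Mdk stayed higher in M833 in all 32 alternatives. Every M833 array exceeded every WT array and the gene was chosen for this difference, so leaving out arrays could not turn the sign. The Mdk difference was 1.16 with log ratios scaled between arrays, where the ratio of Mdk in M833 was -1.96. It was 1.16 without WT set 1 and 2.10 without WT set 2. The difference of Ptn was 0.0275 with array weights, 0.51 without WT set 1, where its WT ratio was -0.24, and -1.10 without WT set 2. The 3301 calls over all features and 26 list calls became 2000 and 17 without the dye term, 835 and 10 in Cy5 arrays, 1100 and 13 in Cy3 arrays, 1465 and 15 with sets as a random block, 0 and 0 with set means as replicates, 1685 and 17 without M833 set 1, and 1858 and 17 without M833 set 2. Without WT set 1 there were 4328 calls over all features and 41 list calls, and without the second slide number series 2206 and 16. The WT sets were found from these arrays, so leaving 1 out tends to narrow the spread within WT and to raise both counts. Centring each array on its median gave 1558 higher features in place of 1276. Leaving out each array gave 2878 to 3295 calls, 23 to 27 list calls, 1.52 to 1.72 for Mdk and -0.44 to -0.16 for Ptn, ratios of -3.50 to -3.30 in WT and -1.80 to -1.76 in M833 for Mdk, and of 0.42 to 0.70 and 0.23 to 0.30 for Ptn.

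Uncalled genes changed sign in some settings. Itgb1 was 0.0396 with scaling and 0.0646 without WT set 2, and Ptprz1 was 0.0118 in Cy3 arrays and 0.0297 without WT set 2. Sdc4 was 0.0289 with array weights, 0.0680 in Cy3 arrays and 0.152 without WT set 1. It was called higher without that set, but the set was found from these arrays, so the call is no test. Leaving out single arrays, Sdc4 ran from -0.199 to 0.0872, the latter without WT replicate 2. Ptprs was 0.0214 and Vcan 0.062 without WT set 1. The causes were not tested. Sdc1, Sdc2, Chpf, Ext2, Irs1, Akt1 and Rdh10 kept their calls in all 30 alternatives run on them other than set means, and the other 16 called genes examined lost theirs in 1 to 20 of these. No paired analysis was possible because the labels give no replicate numbers. Each growth factor rests on 1 probe, and the number of arrays limits the precision.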

Other observations

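Some list genes that were not called differed between the WT sets. The retinaldehyde dehydrogenase gene Aldh1a2, whose product makes retinoic acid in the embryo, had set means of -0.89 and 0.47 in WT and 0.02 and -0.20 in M833, the reverse of the order of Ptn. Igfbp3, encoding a binding protein of insulin-like growth factors, had -2.61 and -1.27 in WT and -2.24 and -2.65 in M833. Ugdh, which makes the UDP-glucuronic acid used for heparan and chondroitin chains, had 0.72 and -0.19 in WT and 0.28 and 0.51 in M833, the order of Ptn. These 3 genes were singled out after their values were seen and carry no test.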
